A study of Rattus norvegicus with 18 samples.

Results

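The older rats of this study were female Sprague-Dawley rats, 52 weeks old when the femur was broken. Of the 18 arrays of the series, 4 were compared here, chosen by age and time alone. Both arrays titled 4 weeks and 6 weeks (late healing) were set against both arrays titled 3 days and 1 week (early healing). The older arrays of 2 weeks and of no fracture are given for reference, and the young rats (6 weeks old at fracture) and adult rats (26 weeks old) at the same times served to estimate the spread and for 1 comparison. All fractures were simple, closed breaks of the middle of the left femur around a steel rod in the marrow canal, and rats with no fracture were sham controls. Each array held RNA pooled from 2 rats, taken from the middle of the femur with its callus, cortical bone, and marrow.

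A closed fracture heals first through a blood clot and inflammation, then through a soft callus of fibrous tissue and cartilage, and then through a hard callus in which cartilage is resorbed and replaced by bone. Osteoblasts lay down matrix rich in type I collagen and osteocalcin, osteoclasts resorb bone and calcified cartilage with acid and proteases, and macrophages and mast cells take part in repair. The marrow of a long bone also makes red cells, granulocytes, and B cells, so a segment of femur holds blood-forming tissue, bone, and often some adhering muscle.

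Signals are in arbitrary intensity units after the authors' scaling to an average of 500 per array. Of 8799 probe sets, 4669 passed the filter for testing (200 or more on at least 3 arrays), and signals below 100 were set to 100 before log2. The series held 1 array per age and time, so the 2 times of a period stood as its replicates. The spread was pooled over the 3 ages (12 arrays). Each fold change is the difference of mean log2 signals, printed as a fold and as log2 ± SE (n = 2 arrays per period). A probe set is called where the adjusted p was below 0.05. Where the lower period lay below the floor of 100 on 1 or both arrays, the change is a lower bound in size, and its fold is given with the words "at least" or its log2 value with the word "floored". This holds for 34 of the 82 probe sets called higher late and 9 of the 20 called lower late. The p-values measure the spread between times within a period and between pools, not between single rats. Between 37.2% and 43.0% of the signals of an older array lay below the floor, and the 5' probe set of Gapdh gave 0.757 to 0.873 times the signal of the 3' one on the 6 older arrays, a ratio that falls when RNA is degraded. It was 0.257 on the young 6 weeks array, which entered the pooled spread and the late values of young rats. A fit without that array leaves 1 array in its group, so it cannot show what the low ratio did to the calls.

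The 4 older arrays fell into pairs by period. Over the tested probe sets, the mean absolute difference in log2 signal was 0.42 between 3 days and 1 week and 0.36 between 4 and 6 weeks, but 0.54 to 0.68 between an early and a late array. The 2 weeks array lay nearest to 1 week (0.35), then to 4 weeks (0.45) and 6 weeks (0.46), and farther from 3 days (0.50). The array without fracture lay 0.93 and 0.92 from 3 days and 1 week, 0.85 from 2 weeks, and 0.69 and 0.71 from 4 and 6 weeks. The late arrays of the older rats were thus nearer to the unfractured femur than the early arrays were, though not as near as they were to each other.

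At 4 and 6 weeks, genes of red cells, B cells, and mast cells were up-regulated against 3 days and 1 week, with osteocalcin and collagenase 3, while regulators of muscle formation were down-regulated. In all, 102 of 4669 probe sets (2.18%) were called, 82 higher late (1.76%) and 20 lower late (0.428%). At an unadjusted p below 0.05 there were 824. The fit took each time within a period as a replicate. With time as a term shared by the 3 ages, 337 probe sets were called, the 102 among them, so that "not called" below refers to the fit without that term. The term raised the number of called genes in the erythroid list to 9, in the fat cell list to 6, in the developing muscle list to 5 (lower late), and in the mature muscle list to 4. The median log2 fold change was 2.25 among the 82, -1.66 among the 20, and 0.04 over all probe sets tested. The 82 higher probe sets held 56 with 1 gene symbol (47 genes), 11 with several, and 15 with none, and 13 of the 82 lay below the floor on both early arrays. The 20 lower ones held 16 with 1 symbol (14 genes). Both late arrays lay above both early arrays for all 82 and below for all 20, as they did for 32.1% and 26.4% of all probe sets tested. The calls at the edge of the threshold were Copz2 (adjusted p = 0.046) just inside and Gadd45a (adjusted p = 0.0504) just outside. Of 35 probe sets named by the rule, 14 kept their call when each of the 4 older arrays was left out in turn, and 9 lost it without any 1 of them. The 14 were those of Slc4a1, Hba-a3, Hbb-b1, Rsad2, Cd72, Cd79b, Ighvl1, Cma1, Cpa3, Tpsab1, Tpsb2, Mcpt1l1, Vcam1, and Rrad. In a bulk segment, fewer cells of a type and less RNA per cell cannot be told apart, which holds for every gene below.

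**Figure D1:**
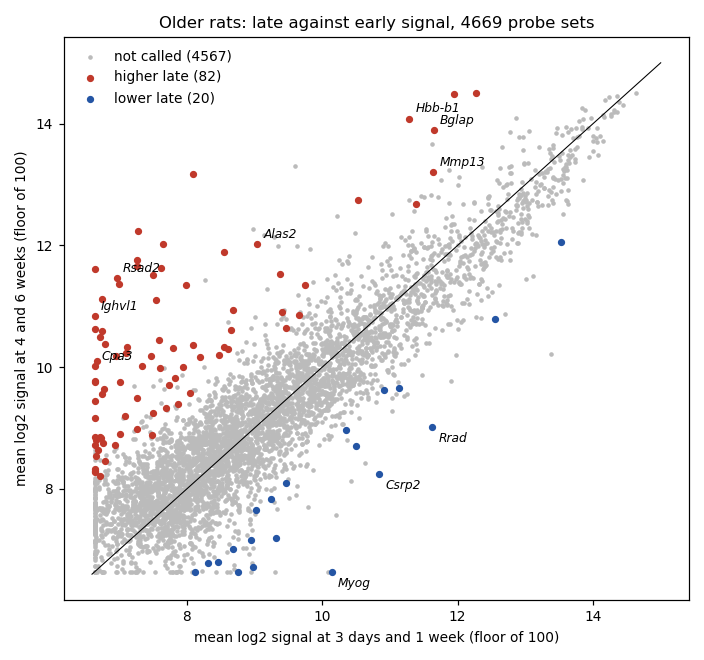
Mean log2 signal of the older rats at 4 and 6 weeks (vertical axis) against 3 days and 1 week (horizontal axis), 1 point per probe set, with the line of equal signal. The 82 probe sets called higher late (red) lie above the line, 13 of them below the floor of 100 on both early arrays, and the 20 called lower late (blue) lie below it.

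The red cell list held the most calls. Of 13 tested erythroid genes, 6 were called higher and 0 lower, all 13 were higher late, and the median log2 fold change was 2.10 against 0.05 over 2886 genes tested. Of these 2886 genes, which stand beside every list below, 44 (1.52%) were called higher and 11 (0.38%) lower. Both late arrays lay above both early arrays for 928 of them and below for 771. Slc4a1, the anion exchanger of the red cell membrane, had signals of 9247 without fracture, 134 at 3 days, 124 at 1 week, 126 at 2 weeks, 4023 at 4 weeks, and 1724 at 6 weeks. Its late signals were 20.5-fold higher than the early ones (log2 4.36 ± 0.40, adjusted p = 3.0e-04), and both late arrays stood far above the 3 arrays of the first 2 weeks, yet below no fracture. A second probe set of Slc4a1 was higher by 1.74 and was not called (adjusted p = 0.074). Alas2, an enzyme that starts heme production in red cell precursors, was 7.89-fold higher late (log2 2.98 ± 0.53, adjusted p = 0.011), with 15441 without fracture, 568 at 3 days, 487 at 1 week, 674 at 2 weeks, 7791 at 4 weeks, and 2212 at 6 weeks. Its late arrays differed from each other more than its early arrays did, 4 weeks being the higher.

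Globin genes were called as well. Hba-a3, an alpha globin, had signals of 16230.4 without fracture, 211 at 3 days, 192 at 1 week, 348 at 2 weeks, 6869 at 4 weeks, and 2509 at 6 weeks and was 20.6-fold higher late (log2 4.37 ± 0.48, adjusted p = 6.0e-04). Hbb-b1, a beta globin, was 6.96-fold higher (log2 2.80 ± 0.40, adjusted p = 0.0028), with 30914 without fracture, 2918 at 3 days, 2131 at 1 week, 3698 at 2 weeks, 21244 at 4 weeks, and 14185 at 6 weeks. Another globin gene, Hbb, was higher by 2.54 (adjusted p = 0.0021). Globin genes are close copies of each other, so their probe sets may share signal. Rhd, a blood group protein of the red cell membrane, rose by 2.52 on the log2 scale, from 238 at 3 days and 209.5 at 1 week to 2016 at 4 weeks and 814 at 6 weeks. Gata1, a transcription factor of red cell and mast cell precursors, had signals of 1508 without fracture, 60.1 at 3 days, 78.4 at 1 week, 82.9 at 2 weeks, 486 at 4 weeks, and 111 at 6 weeks. Its difference of 1.22 (floored) was not called (adjusted p = 0.26), and only the 4 weeks array stood clearly above the early ones. Tfrc, the transferrin receptor, differed by 2.10 (adjusted p = 0.1) and was not called. In all 13 genes the signal was lower at 6 weeks than at 4 weeks, by a median log2 difference of -0.96.

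The listed mast cell genes were higher late and, for the most part, above their level without fracture. Probe sets with several symbols or none were not on any list. Of 7 tested genes, 4 were called higher and 0 lower, all 7 were higher late with no overlap, and the median log2 fold change was 1.95. The median in log2 over no fracture was -1.62 early and 1.05 late. Cma1, a chymase stored in mast cell granules, had signals of 2033 without fracture, 133 at 3 days, 246 at 1 week, 333 at 2 weeks, 2895 at 4 weeks, and 2956 at 6 weeks and was 16.2-fold higher late (log2 4.02 ± 0.47, adjusted p = 8.9e-04). Cpa3, the granule carboxypeptidase, had 307 without fracture, 32.6 at 3 days, 72 at 1 week, 131 at 2 weeks, 1286 at 4 weeks, and 840.3 at 6 weeks, which was at least 10.4-fold higher late (log2 3.38 ± 0.32, adjusted p = 3.8e-04). Tpsab1, a tryptase, was 9.31-fold higher (log2 3.22 ± 0.33, adjusted p = 3.8e-04), with 212 without fracture, 126 at 3 days, 153 at 1 week, 236 at 2 weeks, 1376 at 4 weeks, and 1218 at 6 weeks. In all 3 genes both late arrays stood far above the 3 arrays of the first 2 weeks, and for Cpa3 and Tpsab1 every early array lay below no fracture and every late array well above it. Tpsb2, another tryptase, rose by 1.95 (adjusted p = 0.003). Mcpt1l1, a relative of mast cell protease 1 that was not on the list, had 138 without fracture, 28.1 at 3 days, 29.2 at 1 week, 73 at 2 weeks, 1896 at 4 weeks, and 1329.7 at 6 weeks and was at least 15.9-fold higher late (log2 3.99 ± 0.47, adjusted p = 8.9e-04). Its other probe set, brighter early, was called too, at 2.21. Mast cell proteases form a family of similar genes, so these probe sets may also share signal. Subunits of the IgE receptor were dimmer, and Fcer1a (1.05, floored, adjusted p = 0.13) and Ms4a2 (1.12, floored, adjusted p = 0.1) were not called.

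GATA factors, which bind the letters AGATAA, are known regulators of red cell and mast cell genes, so the promoters of the called genes were searched for AGATAA on both strands (TTATCT on the other). The window was the 250 bases before the RefSeq start in the GRCr8 assembly, and 35 of the 47 genes called higher had an entry. AGATAA stood in 5 of these 35 promoters (14.3%), in 5.66% of the 2384 promoters of tested genes, and in 10.05% of all 27457 promoters. It stood in 2 of 11 erythroid and in 3 of 6 mast cell promoters, and in 1 of 11 promoters (9.09%) of genes called lower. The 4 below are shown because they hold the match, printed in capitals, and their genes rose together in the older rats. They lie at chrX:22895200-22895449 on the plus strand (Alas2), chr5:152370950-152371199 on the plus strand (Rhd), chr15:33390134-33390383 on the minus strand (Cma1), and chr2:104673238-104673487 on the minus strand (Cpa3). Each is written 5' to 3' in the direction of its gene. A match is a description of the letters and not a binding site.
Alas2: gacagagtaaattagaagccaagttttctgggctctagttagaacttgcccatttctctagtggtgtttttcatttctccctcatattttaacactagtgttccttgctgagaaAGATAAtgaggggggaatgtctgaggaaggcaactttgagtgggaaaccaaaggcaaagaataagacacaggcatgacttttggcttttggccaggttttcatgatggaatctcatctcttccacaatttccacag
Rhd: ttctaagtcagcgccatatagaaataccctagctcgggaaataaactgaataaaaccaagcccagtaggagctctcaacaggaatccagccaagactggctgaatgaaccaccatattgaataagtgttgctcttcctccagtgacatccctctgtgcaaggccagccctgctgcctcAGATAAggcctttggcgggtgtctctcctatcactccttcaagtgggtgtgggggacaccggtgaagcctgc
Cma1: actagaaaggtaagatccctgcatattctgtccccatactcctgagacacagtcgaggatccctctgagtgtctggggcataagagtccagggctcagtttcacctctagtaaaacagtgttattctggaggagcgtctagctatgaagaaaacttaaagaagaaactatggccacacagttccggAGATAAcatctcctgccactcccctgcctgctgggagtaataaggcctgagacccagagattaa
Cpa3: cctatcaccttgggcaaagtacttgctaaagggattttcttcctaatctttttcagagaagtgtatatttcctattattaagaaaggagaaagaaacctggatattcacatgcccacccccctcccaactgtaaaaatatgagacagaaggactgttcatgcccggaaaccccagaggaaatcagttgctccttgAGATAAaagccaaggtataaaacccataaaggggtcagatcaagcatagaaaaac
The match lies 136 to 131 bases before the start in Alas2, 72 to 67 in Rhd, 64 to 59 in Cma1, and 55 to 50 in Cpa3.

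Rsad2, which encodes the antiviral protein viperin, was among the genes with the largest changes. Its signals were 13988 without fracture, 142 at 3 days, 111 at 1 week, 195 at 2 weeks, 4231 at 4 weeks, and 1884 at 6 weeks, and it was 22.5-fold higher late (log2 4.49 ± 0.53, adjusted p = 8.9e-04). A second probe set of the gene was called as well, at 3.56. The 3 arrays of the first 2 weeks lay near the floor and both late arrays stood far above them but below no fracture. Rsad2 is known as an interferon-induced gene. Of the 14 tested genes of the interferon and MHC class I list it was the only one called by its brightest probe set (a dimmer one of RT1-S3 was called at 1.74), and the list's median was 0.50, with 13 of 14 higher late. Irf7, a regulator of the interferon response, differed by 1.22 (adjusted p = 0.13), Oas1a by 0.69 (adjusted p = 0.44), and Mx1 by 0.65 (adjusted p = 0.61), none of them called. The promoter of Rsad2 (chr6:48788121-48788370 on the minus strand in GRCr8) is shown because it holds the core letters of interferon-stimulated elements (GAAA, any 2 bases, and GAAA) on the strand opposite to the gene, printed in capitals, 147 to 138 bases before the start.
Rsad2: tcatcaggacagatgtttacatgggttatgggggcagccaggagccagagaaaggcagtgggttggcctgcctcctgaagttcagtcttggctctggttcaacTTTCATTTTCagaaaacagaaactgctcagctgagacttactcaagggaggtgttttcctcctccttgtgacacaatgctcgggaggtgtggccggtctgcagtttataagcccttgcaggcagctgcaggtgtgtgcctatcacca
These letters stood in 7 of 13 promoters of that list and in 4 of 35 promoters of genes called higher. They also stood in 2 of 11 erythroid and 1 of 6 mast cell promoters. The share was 2.77% of the 2384 promoters of tested genes and 3.29% of all 27457 promoters.

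The listed B cell genes were higher late, and their median lay at about the level without fracture (log2 difference of -0.01). Of the 3 called, Cd72 (-0.54) and Cd37 (-0.34) lay below that level and Cd79b (0.48) above it. Of 5 tested genes of B and plasma cells, 3 were called higher and 0 lower, all 5 were higher late with no overlap, and the median was 2.05. Cd72, a receptor of B cells, had 1268 without fracture, 65.1 at 3 days, 79.4 at 1 week, 110.4 at 2 weeks, 706 at 4 weeks, and 1084 at 6 weeks and was at least 8.75-fold higher late (log2 3.13 ± 0.32, adjusted p = 3.8e-04). Cd79b, part of the B cell antigen receptor, was at least 4.24-fold higher (log2 2.08 ± 0.28, adjusted p = 0.0017), with 303 without fracture, 17.8 at 3 days, 27.5 at 1 week, 121 at 2 weeks, 435 at 4 weeks, and 413 at 6 weeks. Cd37, a membrane protein of B cells, rose by 2.05 (adjusted p = 0.0068). Both late arrays of all 3 genes stood above all arrays of the first 2 weeks. Ighvl1, an immunoglobulin heavy chain variable sequence, had 1515 without fracture, 23.3 at 3 days, 40.6 at 1 week, 69.5 at 2 weeks, 1690.5 at 4 weeks, and 2002 at 6 weeks and was at least 18.4-fold higher late (log2 4.20 ± 0.25, adjusted p = 1.0e-05), and its second probe set was called at 3.42 (floored). Variable sequences resemble each other, so this probe set may measure several of them. Of 5 tested T and NK cell genes, 1 was called higher, Ptprc (1.87, floored, adjusted p = 0.0094), the CD45 of all white cells. Its other probe sets (0.78 and 0.59) were not called. Cd3g, of the T cell receptor complex, was between 49.1 and 75.8 early and at 245 and 199 late, and was not called (adjusted p = 0.13). None of 8 MHC class II genes was called, at a median of 0.59 with 7 of 8 higher late.

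Neutrophil granule genes were low on all arrays after fracture. Of 7 tested genes 0 were called, all 7 were higher late, and the median was 0.90. S100a8, a calcium-binding protein of neutrophils, had 22297 without fracture, 849.7 at 3 days, 1358 at 1 week, 128 at 2 weeks, 1533 at 4 weeks, and 3415 at 6 weeks, and RatNP-3b, a defensin, had 24789 without fracture, 1165 at 3 days, 2480.2 at 1 week, 219 at 2 weeks, 2954 at 4 weeks, and 4392 at 6 weeks. The differences between periods, 1.09 (adjusted p = 0.57) and 1.08 (adjusted p = 0.46), lay within the spread. The lowest signals of both genes were at 2 weeks, and all arrays after fracture lay well below no fracture. The median of the list in log2 over no fracture was -4.38 early, -6.73 at 2 weeks, and -3.54 late. Its late-over-early median was 2.07 in young and 3.04 in adult rats. Whether the blood-forming lists moved with the share of marrow in the segments was not tested.

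**Figure D2:**
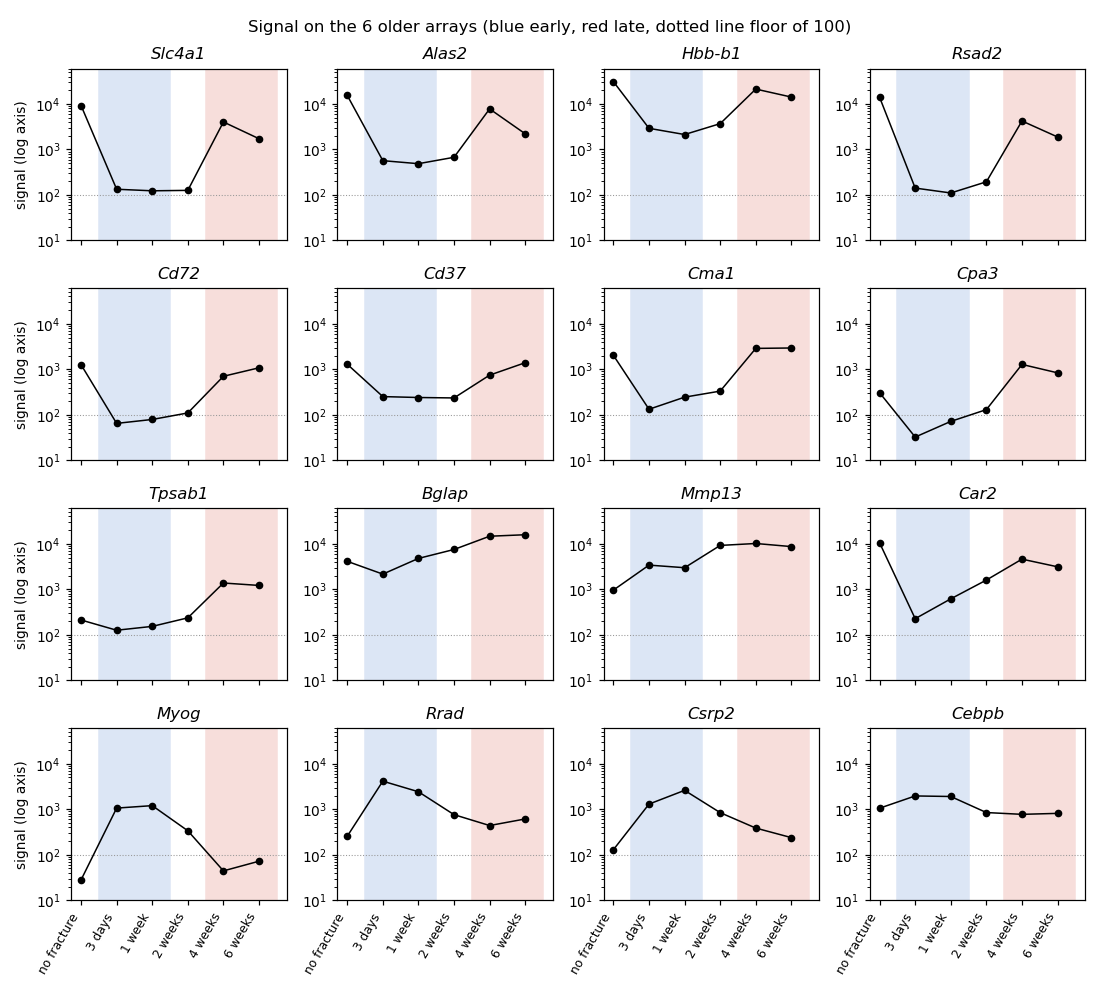
Signal (log axis, arbitrary units) of 16 genes on the 6 older arrays, with early times shaded blue, late times shaded red, and the floor of 100 dotted. Slc4a1, Alas2, Hbb-b1, and Rsad2 are high without fracture, low up to 2 weeks, and partly back at 4 and 6 weeks. Cpa3 and Tpsab1 end above no fracture, and Myog, Rrad, Csrp2, and Cebpb are highest at 3 days or 1 week.

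Among bone genes osteocalcin rose, and the chains of type I collagen were not called. Of 11 tested osteoblast and bone matrix genes, 1 was called higher and 0 lower, and the median was 0.05 (-0.06 with equal array medians). Bglap, which encodes osteocalcin, had 4122 without fracture, 2159 at 3 days, 4777 at 1 week, 7504 at 2 weeks, 14677 at 4 weeks, and 15834 at 6 weeks, and was 4.75-fold higher late (log2 2.25 ± 0.50, adjusted p = 0.039). The 3 days array was the lowest of the 6, and both late arrays stood above all others. Bglap was not called without the older 3 days, 4 weeks, or 6 weeks array, or without the young 6 weeks array. Each of these fits leaves 1 array in a group. Col1a1, the main chain of type I collagen, had 4476 without fracture, 21522 at 3 days, 20417 at 1 week, 23001 at 2 weeks, 20499 at 4 weeks, and 24799 at 6 weeks, which is a difference of 0.11 ± 0.36 (adjusted p = 0.89). All 5 arrays after fracture lay well above no fracture for Col1a1, and they overlapped between periods. Alpl, the alkaline phosphatase of mineralizing cells (-0.02 ± 0.27, adjusted p = 0.97), and Ibsp, bone sialoprotein (0.33 ± 0.41, adjusted p = 0.69), were not called either.

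Of 5 tested osteoclast genes 1 was called, all 5 were higher late with no overlap, and the median was 3.29. All 5 were called with time as a term. Acp5, the tartrate-resistant acid phosphatase of osteoclasts, had 714 without fracture, 304 at 3 days, 1981 at 1 week, 11902 at 2 weeks, 11000.4 at 4 weeks, and 9251 at 6 weeks. Ctsk, the collagen-degrading cathepsin, had 564 without fracture, 1738 at 3 days, 5692 at 1 week, 15215 at 2 weeks, 12577 at 4 weeks, and 13488 at 6 weeks. Mmp9, a gelatinase, had 2126 without fracture, 145 at 3 days, 1758 at 1 week, 8804 at 2 weeks, 6333 at 4 weeks, and 3861 at 6 weeks. In each of these 3 genes 1 week was above 3 days, by a factor of more than 3, and 2 weeks was already at or above the late level. Their log2 differences of 3.70 ± 1.00, 2.05 ± 0.59, and 3.29 ± 1.25 had adjusted p of 0.092, 0.11, and 0.21 and were not called. With time as a term the same differences had SEs of 0.32, 0.30, and 0.47 and adjusted p of 5.3e-05, 0.0023, and 0.002. Car2, the carbonic anhydrase that osteoclasts and red cells use, was 10.1-fold higher late (log2 3.34 ± 0.64, adjusted p = 0.019), with 10493 without fracture, 226 at 3 days, 618 at 1 week, 1598 at 2 weeks, 4604 at 4 weeks, and 3126 at 6 weeks. It followed the osteoclast genes from 3 days to 2 weeks but, like the red cell genes, was highest without fracture.

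Of 24 tested matrix proteases and inhibitors, 1 was called higher and 0 lower, at a median of -0.19. That gene was Mmp13, collagenase 3, which was 2.95-fold higher late (log2 1.56 ± 0.29, adjusted p = 0.017). Its signals were 962 without fracture, 3404 at 3 days, 2985 at 1 week, 9220.4 at 2 weeks, 10165 at 4 weeks, and 8691 at 6 weeks, so that it was already at its late level by 2 weeks, and even the early arrays stood above no fracture. The call of Mmp13 was lost without any 1 of the 4 older arrays (adjusted p = 0.084 to 0.15). Mmp3, stromelysin 1, differed by 1.79 ± 0.43, adjusted p = 0.062, and Mmp12, a macrophage elastase, by 1.72 ± 0.52 (floored), adjusted p = 0.13, neither called. Under the fit with time as a term 5 of the 24 were called higher, Mmp3 and Mmp12 among them (adjusted p = 0.0099 and 0.019). Plasminogen activators were lower late, Plau by -1.21 (adjusted p = 0.12) and Plat by -1.13 (adjusted p = 0.19), and were not called.

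Cartilage genes showed no common direction between the periods. Of 8 tested genes 0 were called (2 higher with time as a term), 4 were higher and 4 lower late, and the median was -0.16. Col2a1, the collagen of cartilage, had 61.1 without fracture, 383 at 3 days, 11336 at 1 week, 12841 at 2 weeks, 7059 at 4 weeks, and 4869.7 at 6 weeks. Col10a1, of hypertrophic cartilage, had 8.9 without fracture, 5.4 at 3 days, 1009.5 at 1 week, 5676 at 2 weeks, 1557 at 4 weeks, and 488 at 6 weeks. Both genes were lowest after fracture at 3 days, peaked at 2 weeks, and at 6 weeks were still well above no fracture. Because of the gap between 3 days and 1 week their differences of 1.49 ± 1.53 and 1.46 ± 1.29 (floored) were within the spread (adjusted p = 0.62 and 0.56). Acan, aggrecan, was lower late by -0.90 and was not called (adjusted p = 0.36). Of 21 fibrous matrix genes 0 were called, 17 were lower late, and the median was -0.31. Lox, which cross-links collagen, had 94.9 without fracture, 8549 at 3 days, 9268 at 1 week, 8747 at 2 weeks, 3360.3 at 4 weeks, and 2464 at 6 weeks, a difference of -1.63 ± 0.53 that was not called (adjusted p = 0.16). In the fit with time as a term Lox was 1 of 2 genes called lower (adjusted p = 0.017). The fibrous matrix list still stood 2.29 above no fracture late, against 2.78 early.

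Regulators of muscle formation were down-regulated. Of 15 tested genes of developing and regenerating muscle, 2 were called lower and 0 higher, 14 were lower late, and the median was -1.37. Myog, myogenin, a transcription factor of muscle differentiation, had 28 without fracture, 1060.0 at 3 days, 1200.1 at 1 week, 336 at 2 weeks, 44.2 at 4 weeks, and 72.1 at 6 weeks, and was at least 11.3-fold lower late (log2 -3.50 ± 0.57, adjusted p = 0.0068). Myf6, a related factor, was 3.47-fold lower (log2 -1.80 ± 0.35, adjusted p = 0.019), with 317 without fracture, 1706 at 3 days, 1222 at 1 week, 499.7 at 2 weeks, 383 at 4 weeks, and 451 at 6 weeks. Both late arrays of these genes were back near no fracture, and 2 weeks lay between the periods. Without any 1 of the 4 older arrays neither gene was called, with an adjusted p of 0.055 to 0.058 for Myog. Des, the muscle filament protein desmin, differed by -1.57 (adjusted p = 0.059), and Chrna1, an acetylcholine receptor subunit, by -2.21 (adjusted p = 0.079). Neither was called. Actc1 and Myh3, actin and myosin of embryonic muscle, were low at 3 days (1162 and 2580.1) and peaked at 1 week (12728 and 17445), so their early arrays did not form a group. Muscle itself was present on all 6 arrays. Acta1, the actin of skeletal muscle, lay between 18512 and 24194, and of 35 mature muscle genes 0 were called, with 31 higher late and a median of 0.58. The part of muscle content in the changes of Myog and Myf6 was not tested.

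Other down-regulated genes came from several families. Rrad, a small GTPase of muscle and heart, had 255 without fracture, 4139 at 3 days, 2424 at 1 week, 760.4 at 2 weeks, 438 at 4 weeks, and 612 at 6 weeks, and was 6.12-fold lower late (log2 -2.61 ± 0.33, adjusted p = 0.0013). Csrp2, a LIM-domain protein of smooth muscle and activated fibroblasts, was 6.07-fold lower (log2 -2.60 ± 0.48, adjusted p = 0.014), with 129 without fracture, 1298 at 3 days, 2600.3 at 1 week, 842 at 2 weeks, 386 at 4 weeks, and 238 at 6 weeks. Cebpb, a transcription factor of the acute phase and of fat cell formation, was 2.44-fold lower (log2 -1.29 ± 0.25, adjusted p = 0.019), with 1055 without fracture, 1960.0 at 3 days, 1906 at 1 week, 846 at 2 weeks, 772 at 4 weeks, and 811 at 6 weeks, and its second, dimmer probe set was called too, at -2.11 (floored). All 3 genes had both late arrays below both early arrays, and Cebpb was at its late level by 2 weeks. Pvr, a cell adhesion receptor (-2.26, floored, adjusted p = 0.0069), Crabp2, a carrier of retinoic acid (-2.13, floored, adjusted p = 0.031), and Copz2, a coat protein of transport vesicles (-1.48, adjusted p = 0.046), fell as well. So did Pdlim5, a cytoskeletal adaptor (-1.37, adjusted p = 0.042). Glg1 (-1.40), Prdx6 (-1.36), and Psmd4 (-1.39) were called by 1 probe set each, while other probe sets of the same genes (-0.63 to -0.37) were not.

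No gene of protein synthesis, export, or breakdown on the lists was called by its brightest probe set, and most had lower signals late. Psmd4, a proteasome subunit named above, was called by 1 of its probe sets (-1.39, adjusted p = 0.046). Of 29 endoplasmic reticulum and secretory genes 0 were called, 28 were lower late, and 25 did not overlap, at a median of -0.78. Hspa5, the chaperone BiP, had 1904 without fracture, 4885 at 3 days, 3433 at 1 week, 3321 at 2 weeks, 1704 at 4 weeks, and 1469 at 6 weeks (log2 -1.37 ± 0.37, adjusted p = 0.091). Lman1, a cargo receptor, had 122 without fracture, 945 at 3 days, 644 at 1 week, 369 at 2 weeks, 272 at 4 weeks, and 208 at 6 weeks (log2 -1.71 ± 0.61, adjusted p = 0.19). Both were highest at 3 days, and the late arrays of Hspa5 lay below no fracture while those of Lman1 stayed above it. Of 21 proteasome genes 0 were called and 19 were lower late, with a median of -0.65. Psmc5, a proteasome ATPase, was the nearest to a call (-1.38 ± 0.36, adjusted p = 0.079), while Psme1, of the interferon-inducible cap, was higher late (0.85 ± 0.40, adjusted p = 0.29). With time as a term 9 of the 29 secretory genes, Hspa5 and Lman1 among them (adjusted p = 0.0089 and 0.012), and 4 of the 21 proteasome genes, Psmc5 among them (adjusted p = 0.011), were called lower. Of 36 cytosolic ribosomal protein genes 0 were called, 33 were lower, and the median was -0.32. Of 26 cytoskeleton and motility genes 0 were called, 23 were lower, and the median was -0.53. Over all 2886 genes 11 (0.38%) were called lower, 1346 were lower late, and 771 of them did not overlap.

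**Figure D3:**
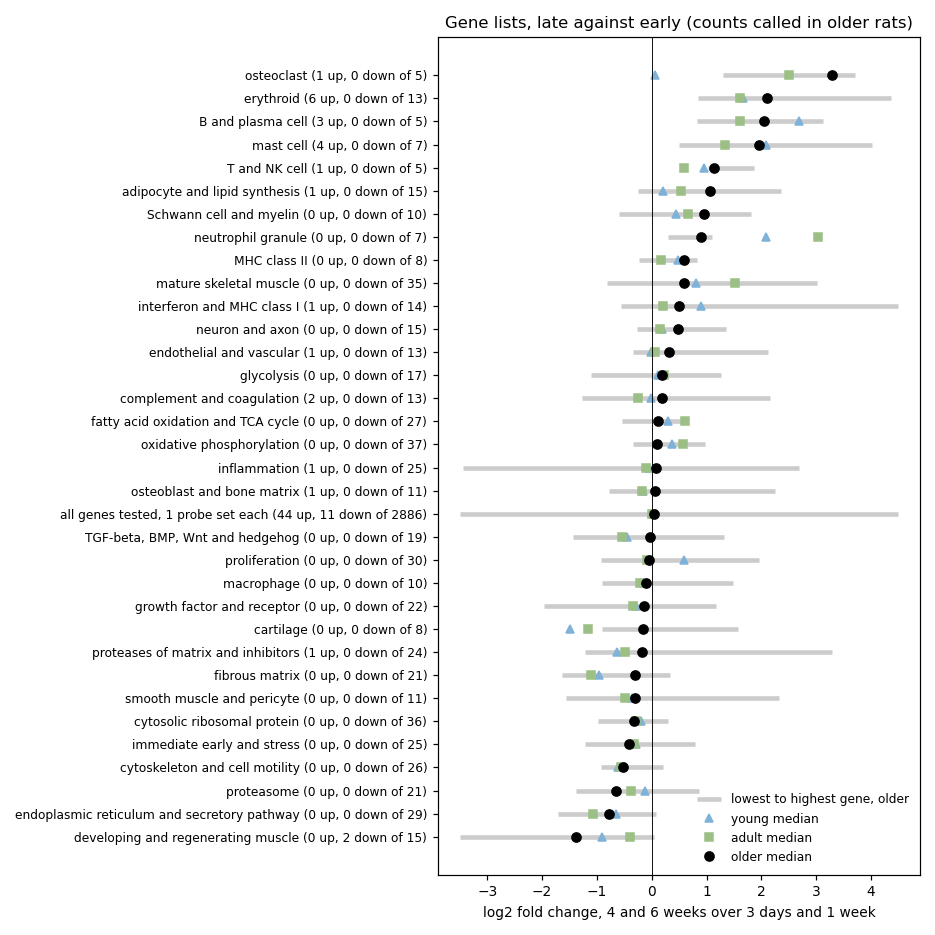
Log2 fold change of 4 and 6 weeks over 3 days and 1 week for 33 gene lists and for all 2886 genes, sorted by the older median (black), with the lowest to highest gene of the older rats (grey bar) and the medians of young and adult rats. Labels give the number called up and down in older rats of the number tested. Osteoclast, erythroid, B cell, and mast cell lists lie highest in older rats and developing muscle lowest.

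Of 25 tested inflammatory genes, 1 was called higher and 0 lower, at a median of 0.08 (-0.08 after quantile normalization, -0.03 with equal array medians). The called gene was Alox15, a lipoxygenase of reticulocytes and macrophages, whose brighter probe set had 3172 without fracture, 46.8 at 3 days, 263 at 1 week, 123 at 2 weeks, 1618 at 4 weeks, and 670.3 at 6 weeks and rose by 2.68 (floored, adjusted p = 0.019). Its other probe set rose by 2.81 (floored). Ptgs2, the inducible cyclooxygenase, had 63.3 without fracture, 978 at 3 days, 1213 at 1 week, 414 at 2 weeks, 75.3 at 4 weeks, and 18.1 at 6 weeks (log2 -3.44 ± 0.94, floored, adjusted p = 0.093). Il6, a cytokine of acute inflammation, had 10 without fracture, 1008 at 3 days, 398 at 1 week, 95.7 at 2 weeks, 77 at 4 weeks, and 86.5 at 6 weeks (log2 -2.66 ± 0.71, floored, adjusted p = 0.091). Both were highest early and lay below the floor late, but their changes were not called. The fit with time as a term called 4 of the 25 lower, among them Ptgs2 (adjusted p = 0.011) and Il6 (adjusted p = 0.0011). Ccl2, a monocyte chemokine, differed by -0.98 (adjusted p = 0.36). Of 10 macrophage genes 0 were called, with 5 higher and 5 lower and a median of -0.11.

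Of 15 fat cell and lipid synthesis genes, 1 was called higher, 12 were higher late, and the median was 1.06. It was Cfd, the serine protease adipsin made by fat cells, which was 4.48-fold higher late (log2 2.16 ± 0.37, adjusted p = 0.0094) with 3878 without fracture, 689.9 at 3 days, 635 at 1 week, 1062 at 2 weeks, 2827 at 4 weeks, and 3113 at 6 weeks. Scd, a desaturase, differed by 2.36 (adjusted p = 0.13) and Fabp4, a fatty acid carrier of fat cells, by 1.06 (adjusted p = 0.24), and neither was called. Cfd and Serping1, the inhibitor of C1 (1.49 ± 0.29, adjusted p = 0.019), were the 2 called of 13 complement and coagulation genes. Of 13 endothelial and vascular genes, 1 was called, Vcam1, an adhesion molecule of vessels and marrow stroma, which was 4.34-fold higher (log2 2.12 ± 0.31, adjusted p = 0.0035), with 805 without fracture, 143 at 3 days, 129 at 1 week, 208 at 2 weeks, 632 at 4 weeks, and 549 at 6 weeks. Its second probe set was called too, at 1.71. Pecam1, a defining marker of endothelium, lay between 403 and 511 on all 5 arrays after fracture and was not called (-0.02, adjusted p = 0.98). No gene was called among 30 proliferation genes (median -0.05), 37 of oxidative phosphorylation (0.09, and -0.02 with equal array medians), 27 of fatty acid oxidation and the TCA cycle (0.12), 17 of glycolysis (0.18), 25 immediate early and stress genes (-0.41), 22 growth factors and receptors (-0.14), or 19 of TGF-beta, BMP, Wnt, and hedgehog signaling (-0.03). The same holds for 11 smooth muscle genes (-0.31), 10 Schwann cell and myelin genes (0.96), and 15 neuron and axon genes (0.47). Each of these lists held 0 to 3 calls with time as a term.

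Further called genes are named outside the naming rule and were chosen after their values were seen. Cxcl14, a chemokine, was called by both of its probe sets (2.27 and 2.25). Syk, a kinase of B cell and mast cell receptors, rose by 1.52, with 262 and 269 early and 769.8 and 750.3 late. Milr1, an inhibitory receptor of mast cells, rose by 1.63 and Iglc1, an immunoglobulin light chain, by 1.65 (floored). Ucp2, a mitochondrial carrier abundant in blood-forming cells, rose by 1.29, from 2586 and 2782 to 7098 and 6084. Acsl1, which activates fatty acids, was called by 2 probe sets (2.39 and 1.96). Another 4 probe sets, with no gene symbol, had log2 changes of 4.50 to 5.08, and 3 of them were floored.

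Set against the older femur without fracture, most of the probe sets higher late lay between the early level and the unfractured one. Of the 82 probe sets, 62 (75.6%) lay late between early and no fracture, 18 had passed no fracture, and for 2 no fracture was on the early side. Among all 2480 tested probe sets that were higher late, 47.0% lay between. The median of the 82 in log2 over no fracture was -3.63 early, -3.15 at 2 weeks, and still -1.24 late. Of the 20 lower late, 13 lay between and 7 had passed no fracture, and 55.2% of all 2185 probe sets lower late lay between. Probe sets with late and no fracture both at the floor count as between, such as Myog, Gprc5c, and the dimmer probe set of Cebpb. The median of the 20 stood 2.12 above no fracture early, 0.95 above at 2 weeks, and 0.04 above late. At 2 weeks, 76 of the 82 (92.7%) were nearer to early than to late, against 54.2% of all probe sets higher late, and 11 of the 20 (55.0%) were, against 49.7%. At 6 weeks, 41 of the 82 were higher than at 4 weeks and 41 lower. There was 1 array without fracture, so these positions have no test.

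**Figure D4:**
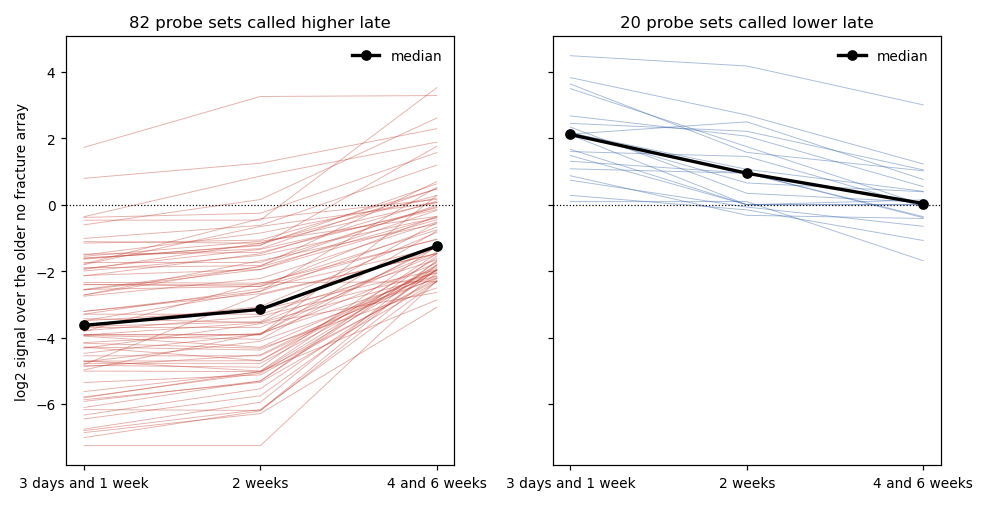
Log2 signal over the older no fracture array (dotted line at 0) of each probe set called higher late (left, 82 lines) or lower late (right, 20 lines), at 3 days and 1 week, 2 weeks, and 4 and 6 weeks, with the median in black. The left median runs from -3.63 through -3.15 to -1.24, and the right median from 2.12 through 0.95 to 0.04.

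The same contrast was made in young and adult rats with the same fit. Late against early, 199 probe sets (4.26%) were called in young and 128 (2.74%) in adult rats. All 82 probe sets higher late in older rats were higher late in young and in adult rats, and of the 20 lower ones 20 were lower in young and 19 in adult rats. Of all 2480 higher late in older rats, 1722 were higher in young and 1866 in adult rats. Of all 2185 lower late in older rats, 1563 were lower in young and 1717 in adult rats. The difference of the change in older rats from the mean of the others was called for 0 of 4669 probe sets (0%) by limma, with 375 at an unadjusted p below 0.05 and a lowest adjusted p of 0.19. Against young rats alone 5 probe sets were called, all with a higher change in older rats, and with no filter on low signals 5 were called against the mean of the others. Without the young 1 week array 4 were. The lack of calls does not show that the ages changed alike.

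The 3 probe sets with the lowest p for this difference were of Slc4a2, Gal, and Acp5. Slc4a2, an anion exchanger of osteoclasts and other cells, had older signals of 85.1 without fracture, 199 at 3 days, 373 at 1 week, 849 at 2 weeks, 856 at 4 weeks, and 725 at 6 weeks. Its late-over-early log2 change was 1.53 in older, -2.16 in young and 0.46 in adult rats (difference 2.38 ± 0.37, adjusted p = 0.19). Gal, the neuropeptide galanin, had 7.8 without fracture, 166 at 3 days, 237 at 1 week, 723 at 2 weeks, 536 at 4 weeks, and 480.0 at 6 weeks in older rats, and changed by 1.35 there, -2.01 in young and -0.73 in adult rats (difference 2.72 ± 0.47, adjusted p = 0.19). Acp5, of osteoclasts, changed by 3.70 in older, 0.22 in young and 2.61 in adult rats (difference 2.28 ± 0.40, adjusted p = 0.19). Against young rats alone the called probe sets were those of Slc4a2, Acp5, Mmp9, and Col2a1 and 1 with no symbol. Every change in young rats, and every difference from them, includes the young 6 weeks array, whose Gapdh ratio was 0.257. The part of its RNA quality in these values was not tested. Of the genes called late against early in older rats, Bglap and Myog are given for their size and were chosen after their values were seen, and neither difference was called. Bglap changed by 2.25 in older, 0.51 in young and 1.06 in adult rats (difference 1.46 ± 0.30), and Myog by -3.50 (floored) in older, -0.33 in young and -1.04 in adult rats (difference -2.81 ± 0.66). Late Bglap signals had means of 16482 in young, 16595 in adult, and 15256 in older rats. The early means were 12671, 8348, and 3468, so the older rats were lowest early. They were also lowest without fracture, with Bglap signals of 14069 in young, 11082 in adult, and 4122 in older rats (1 array each). Myog without fracture was 404 in young, 389.5 in adult, and 28 in older rats. Acp5 had early means of 5378 in young, 2537 in adult, and 1142 in older rats and late means of 5356, 9055, and 10126. Cartilage genes changed by a median of -1.48 in young, -1.17 in adult, and -0.16 in older rats, and fibrous matrix genes by -0.96, -1.10, and -0.31. Erythroid genes changed by medians of 1.67, 1.62, and 2.10 and mast cell genes by 2.08, 1.34, and 1.95 in the same order.

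**Figure D5:**
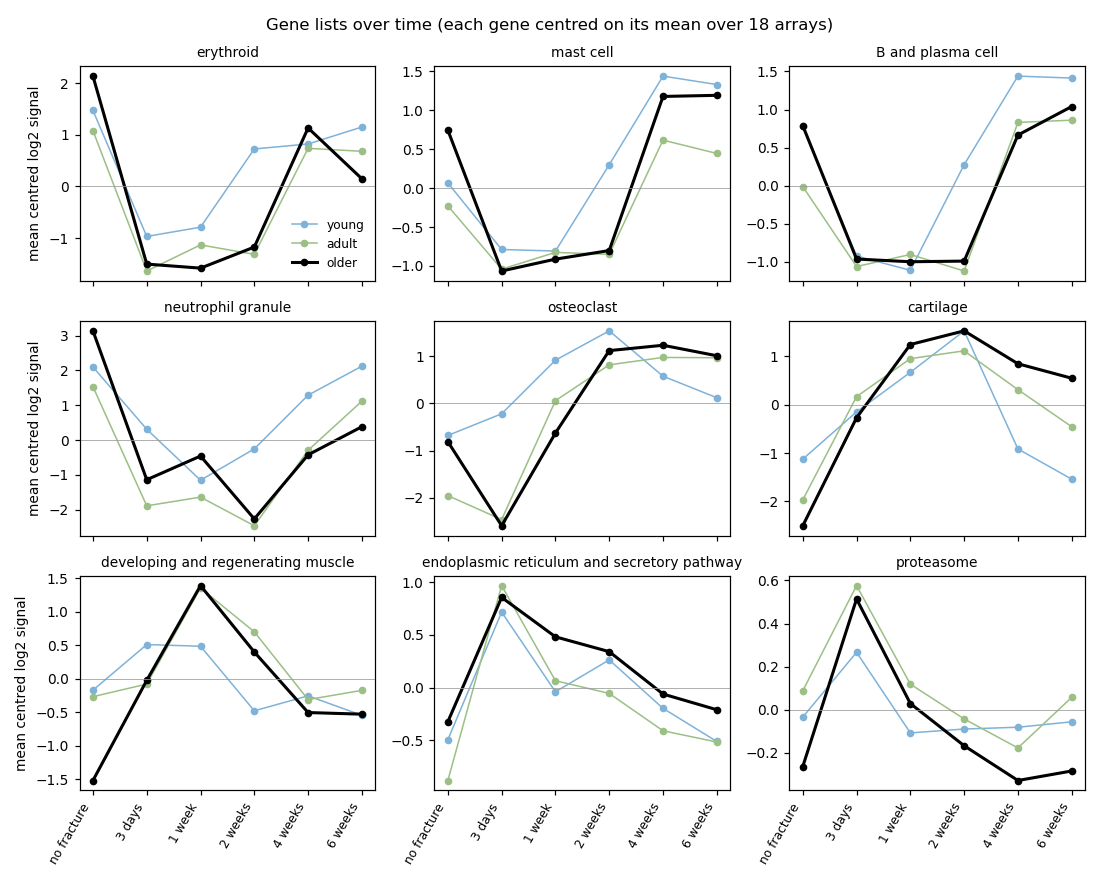
Mean log2 signal of 9 gene lists, each gene centred on its mean over 18 arrays, from no fracture to 6 weeks (times evenly spaced), in older (black), young (blue), and adult (green) rats, 1 array per point. In older rats the erythroid, mast cell, and B cell lists stay low through 2 weeks and rise at 4 weeks, the osteoclast list rises from 3 days to 2 weeks, and developing muscle peaks at 1 week.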

How the data were processed

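The authors hybridized Affymetrix rat arrays and deposited 1 intensity per probe set, a Microarray Suite signal that they had scaled so that the average of an array was 500. RNA of 2 rats was pooled per array. The series used here, titled Series 1, held 1 array for each of 3 ages and 6 times (18 arrays). The paper reports 3 arrays per age and time, and the others are not in this series. Of 8799 probe sets 59 were controls. In the platform's annotation 7018 had 1 gene symbol, 308 had several, and 1473 had none. The gene lists and their members were chosen with earlier results of these data known.

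Log2 of signals floored at 100 was tested with lmFit and eBayes (with trend, two-sided) of limma 3.58.1 under R 4.3.3. The 12 arrays of 3 days, 1 week, 4 weeks, and 6 weeks formed 6 groups of age and period with 6 residual degrees of freedom, and the older late mean was compared with the older early mean. The difference from the mean of young and adult rats was tested with time as a term, with 4 residual degrees of freedom. P-values were adjusted by the Benjamini-Hochberg method across all 4669 tested probe sets, and 0.05 was the threshold. Each list gene was taken at its brightest probe set, and lists had no test of their own. The text names the 12 highest and 12 lowest log2 fold changes among calls with 1 symbol and no overlap whose higher period had a mean signal of at least 500, and up to 4 called genes of each list. Alternatives were other floors, filters, scalings, and models, the two-sample test named in the study's methods, and each array left out in turn. Promoters are RefSeq sequences of GRCr8. The steps were tested on simulated data. The number of arrays limits the precision. Python 3.11.15 with matplotlib 3.10.9 drew the figures.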

Additional observations from a re-analysis of the deposited data

How the results depend on the processing

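None of the 35 probe sets named by the rule reversed its direction under these alternatives, which were not all run for other genes of the text. Against 102 probe sets called in older rats late against early (82 higher, 20 lower), a floor of 20 gave 105, a floor of 200 gave 97, a filter at 500 gave 86, quantile normalization 106, equal array medians 100, robust moderation 106, and no trend 113. Equal array medians moved the median of all probe sets from 0.04 to -0.06, and the share of calls that were higher went from 80.4% to 72.0% (73.6% after quantile normalization). With no filter 102 were called, of which 56 were among the first 102. Only the 4 older arrays gave 101, of which 63 were among them. Time as a term gave 337 (218 higher, 119 lower), which held all 102, and 1 probe set per gene gave 56 (45 higher, 11 lower), with fewer probe sets tested. With 2 weeks counted as early 88 were called, 10 of them lower. The two-sample test of the study's methods gave 5 (4 higher, 1 lower) after adjustment, none of them among the 102, and 687 before. With 1 array left out in turn the count ran from 39 to 125 (33 to 91 higher, 3 to 34 lower). It was 39 without older 3 days, 53 without older 1 week, 53 without older 4 weeks, and 57 without older 6 weeks, where the lone array left in the period is assumed to vary like the other groups. Lower calls were 33 and 34 without adult 3 days or adult 1 week and 11 without adult 4 weeks or adult 6 weeks. Without older arrays the erythroid list held 4 to 8 calls, the mast cell list 4, the B cell list 2 or 3, the interferon and the endothelial list 1, and the developing muscle and fat cell lists 0. The complement list held 0 or 1, as did the osteoclast, bone, protease, T and NK cell, and inflammation lists. For the difference of older rats from the others, no filter gave 5 (3 higher, 2 lower) and older minus young 5 (5 higher), and 1 array left out gave 0 to 4 (0 to 3 higher, 0 or 1 lower), with 4 without young 1 week. The causes of these shifts were not tested. No paired analysis was possible because each age and time has 1 array, so the periods share fewer than 2 replicate numbers.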
